A study of Mus musculus with 8 samples.

Results

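Bmp8b and Bmp8a are neighbouring genes on mouse chromosome 4 that encode closely related secreted ligands of the bone morphogenetic protein (BMP) branch of the TGF-beta superfamily. They were taken by symbol from a gene table of brown adipose tissue and are 2 of its 54532 genes. Bmp8b was higher in every OGTBKO library than in any WT library, with a mean of 7.37 ± 2.12 FPKM (fragments per kilobase of gene, a level per length and per depth of the library) in OGTBKO tissue, against 0.372 ± 0.0581 FPKM in WT tissue (SD, n = 4 each). Bmp8a was at the edge of detection in all 8 libraries, with 13 reads over the 4 OGTBKO libraries and 1 read over the 4 WT libraries. The pair was chosen with this difference known, so its values are given as a description, without a test.

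The study compared brown adipose tissue of OGTBKO mice, a brown adipocyte-specific knockout of Ogt, with that of wild-type (WT) mice, 4 samples each. Ogt encodes O-GlcNAc transferase, which adds single N-acetylglucosamine sugars to proteins inside the cell. Mice of both groups lived at 23 °C on standard chow, were induced after 8 weeks with an agent that the labels spell "gomaxifen", and gave their tissue 2 months later, after the white fat around it had been removed. The sources used here give neither the Cre driver, the deleted exons, the sex of the animals nor the alleles carried by the WT mice. The cell type is labelled as adipocytes, but the protocol describes dissected tissue, so each value is that of a whole depot, in which fewer cells of a type and less RNA per cell cannot be told apart. The labels number the samples without saying that each is a separate animal, so p-values measure only the spread between these samples.

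BMP ligands are made as precursors, cut by furin-like convertases, and bind pairs of type I and type II serine/threonine kinase receptors, which phosphorylate SMAD proteins that carry the signal to target genes such as those of the Id family. In mice, Bmp8b is known as a factor secreted by brown fat that cold and high-fat feeding induce, that raises the response of brown adipocytes to noradrenergic stimulation, and that takes part in shaping the nerves and vessels of adipose tissue. Bmp8a is best known for its role in the male germ line of mice. Ucp1 encodes the uncoupling protein with which brown adipocytes make heat, and is itself induced by cold.

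The paralogues are similar enough in sequence that short reads can match both, which bears on how their values can be read. Bmp8b (ENSMUSG00000002384) lies at chr4:123105165-123132099 on the plus strand and Bmp8a (ENSMUSG00000032726) at chr4:123312645-123343252 on the minus strand of mm10, with 180.546 kb between them. In GENCODE M21 Bmp8a has a coding transcript, Bmp8a-201, with 1236 coding bases, of which exon 6 holds 150, and a shorter one, Bmp8a-202. The transcripts compared here, Bmp8b-201 and Bmp8a-202, each have 7 exons and 1197 coding bases that align without a gap within every exon. Of these coding bases 1053 were identical, or 88.0%. Identity was 99.5% in exon 2 (189 of 190 bases) and 98.7% in exon 3 (147 of 149), against 80.0% in exon 1, 87.7% in exon 4, 95% in exon 5, 82.9% in exon 6 and 80.3% in exon 7. The longest run shared by both genes covered 182 coding bases, numbers 451 to 632, across the junction of exons 2 and 3. It spans chr4:123114693-123115262 in Bmp8b and chr4:123324593-123325163 in Bmp8a, with an intron inside each span. It is shown because a read that falls wholly inside it cannot be assigned to either gene by its letters:
shared run, exons 2 and 3: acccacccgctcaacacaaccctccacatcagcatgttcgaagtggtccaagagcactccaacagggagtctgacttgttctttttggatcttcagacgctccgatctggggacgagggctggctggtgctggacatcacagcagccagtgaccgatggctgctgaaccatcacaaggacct

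**Figure D1:**
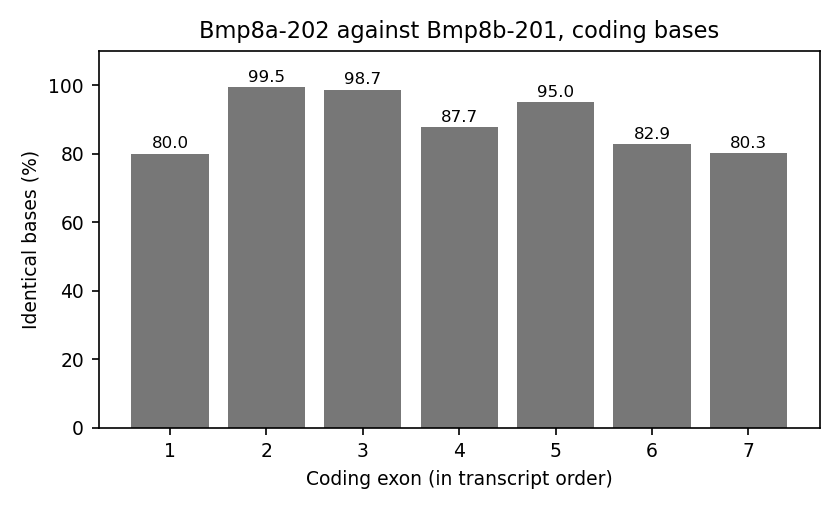
Bars give the percentage of identical coding bases (vertical axis) in each of the 7 coding exons (horizontal axis) between Bmp8a-202 and Bmp8b-201. Exons 2 and 3 stand at 99.5% and 98.7%, while exons 1 and 7 stand at 80.0% and 80.3%.

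Further shared stretches lie outside that run. Of all stretches of 100 bases in their transcripts, 2.88% of those in Bmp8b and 4.54% of those in Bmp8a occurred in the other gene. For stretches of 50 bases the shares were 5.50% in Bmp8b and 8.74% in Bmp8a. The sources used here give neither the read length nor how reads that match several places were counted. Exon 6 lies in the part that encodes the mature ligand, and its 111 bases differed at 19 positions. It is shown as an example of sequence that separates the paralogues, with the bases that differ in capitals:
Bmp8b exon 6, chr4:123122947-123123057, plus strand: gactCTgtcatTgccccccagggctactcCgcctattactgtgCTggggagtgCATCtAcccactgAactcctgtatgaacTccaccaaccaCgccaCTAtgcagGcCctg
Bmp8a exon 6, chr4:123315844-123315954, minus strand: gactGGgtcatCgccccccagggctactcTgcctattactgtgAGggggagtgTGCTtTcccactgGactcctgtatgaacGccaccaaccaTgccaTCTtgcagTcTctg

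The start regions of the genes share far less. Over the 250 bases before each RefSeq start (GRCm38.p6, the RefSeq name of the mm10 sequence), an end-to-end alignment held 124 identical bases of 215 aligned, or 57.7%, and the longest identical run was 8 bases. The Bmp8a window ends at the start of Bmp8a-201 (chr4:123343252), while Bmp8a-202, the transcript compared above, starts at chr4:123342803. The Bmp8b window was 65.2% G and C with 17 CpG dinucleotides, and the Bmp8a window 62.0% with 12. The windows are shown to let the start of the gene with the large difference be set beside that of its paralogue, with matches to the GC box (GGGCGG) and the CCAAT box (CCAAT) in capitals, read on either strand:
Bmp8b, chr4:123104911-123105160, plus strand: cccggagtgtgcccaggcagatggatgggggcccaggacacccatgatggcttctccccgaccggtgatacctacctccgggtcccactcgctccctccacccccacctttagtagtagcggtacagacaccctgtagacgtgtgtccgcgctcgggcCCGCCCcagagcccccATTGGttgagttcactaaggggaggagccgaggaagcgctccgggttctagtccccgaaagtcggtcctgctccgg
Bmp8a, chr4:123343253-123343502, minus strand: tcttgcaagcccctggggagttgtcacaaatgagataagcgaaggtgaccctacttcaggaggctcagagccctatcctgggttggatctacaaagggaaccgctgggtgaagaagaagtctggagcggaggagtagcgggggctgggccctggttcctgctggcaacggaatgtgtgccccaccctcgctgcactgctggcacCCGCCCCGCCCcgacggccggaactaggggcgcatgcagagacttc

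Bmp8b had 1 GC box and 1 CCAAT box, and Bmp8a had 2 GC boxes that overlap in 1 base and no CCAAT box. A GC box stood in 32.7% and a CCAAT box in 33.8% of 32851 promoter windows of the same length. No match in either window was found for the E-box CACGTG (6.02% of windows), the cAMP response element TGACGTCA (1.55%), its core TGACG, which lies within that element (17.8%), or the TATA box TATAAA (12.4%). These are matches of letters within this window and nothing more.

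In the individual libraries, Bmp8b stood at 4.80, 6.98, 9.95 and 7.76 FPKM in OGTBKO 1 to 4, against 0.390, 0.360, 0.438 and 0.300 FPKM in WT 1 to 4. The deposited values, multiplied by gene length, came out as whole reads, which numbered 306, 436, 694 and 419 in the OGTBKO libraries and 21, 20, 18 and 19 in the WT libraries. The groups did not overlap, as in 22.5% of all genes tested, and lay far apart: the lowest OGTBKO level was 11.0 times the highest WT level. On the log2(FPKM + 0.5) scale the difference was 3.14 with a standard error of 0.19 and a 95% interval from 2.71 to 3.56 in the limma fit over all genes. That scale understates changes of low genes. The ratio of the mean FPKM values was 19.8, and the ratio of pooled reads, set against the sum of the FPKM denominators, was 20.3 with a 95% counting interval from 16.2 to 25.9. That interval leaves out the spread between libraries. Without each library in turn the log2 difference lay between 2.98 (without OGTBKO 3) and 3.31 (without OGTBKO 1).

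The WT libraries differed little in Bmp8b and the OGTBKO libraries differed more. The highest OGTBKO level was 2.07 times the lowest, with a coefficient of variation of 28.8%, against 1.46 times and 15.6% in WT tissue. The spread within OGTBKO was larger than counting error: the exact 95% Poisson interval ran from 4.28 to 5.37 FPKM in OGTBKO 1 and from 9.22 to 10.7 FPKM in OGTBKO 3. The 4 WT intervals, which rest on 18 to 21 reads, all overlapped, so no difference between WT libraries was detectable at this depth. Such intervals cover counting error only. Bmp8b passed the filter on low values (0.5 FPKM on average) only through its OGTBKO level. By its mean level per length in OGTBKO tissue it stood above 66.9% of the 11338 protein-coding genes that passed. Its log2 difference had rank 1 among these genes on the log2(FPKM + 0.5) scale, ahead of Wwc1 (2.61) and Cend1 (2.57), and rank 3 among all 13171 genes tested. The rank depends on the scale: among the protein-coding genes it was 2 with a pseudocount of 0.1 and 3 with limma voom on reads, both behind Wwc1.

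**Figure D2:**
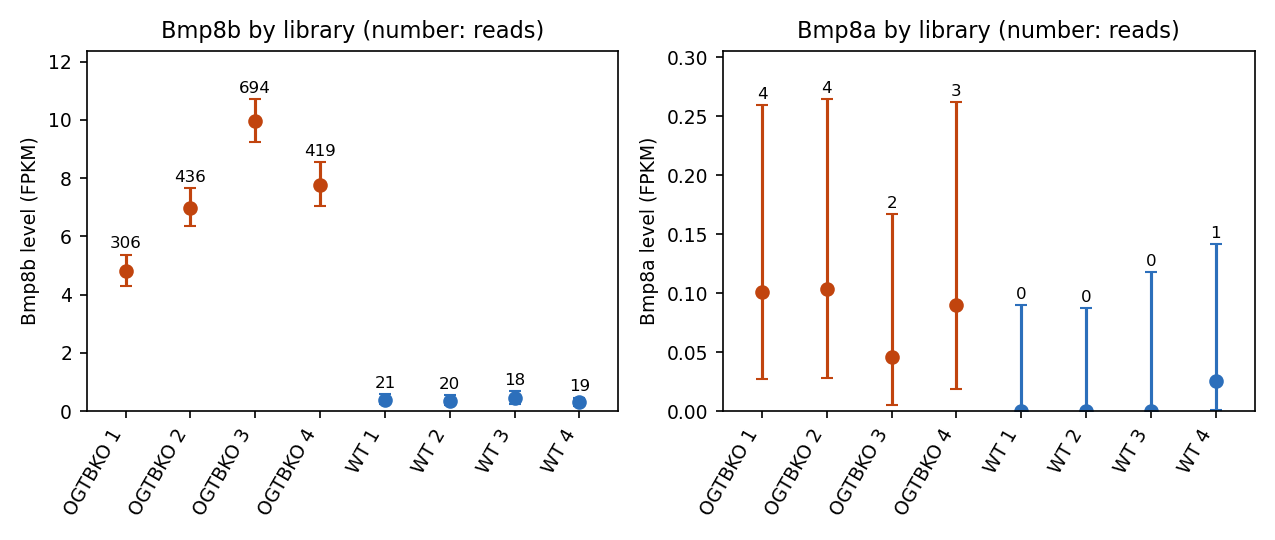
Points give the level in FPKM of Bmp8b (left) and Bmp8a (right) in each of 4 OGTBKO and 4 WT libraries, with exact 95% Poisson intervals and the number of reads above each. Where the count is 0 the line runs up to the level of 3 reads. The scales differ between the panels: Bmp8b lies between 4.80 and 9.95 FPKM in OGTBKO and between 0.300 and 0.438 FPKM in WT libraries, while no Bmp8a level exceeds 0.103 FPKM.

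Bmp8a was too low for the test across genes, which kept genes with a mean of at least 0.5 FPKM, so 1 of the 2 members passed that filter. It stood at 0.101, 0.103, 0.0463 and 0.0896 FPKM in OGTBKO 1 to 4 (4, 4, 2 and 3 reads), against 0, 0, 0 and 0.0254 FPKM in WT 1 to 4 (0, 0, 0 and 1 read). A count of 0 was taken to allow up to 3 reads, which were worth 0.0900, 0.0871 and 0.118 FPKM in the 3 WT libraries at 0. Every OGTBKO library held more Bmp8a reads than any WT library, beside 22.5% of all genes tested whose groups were apart in FPKM. The margin was as small as 2 reads in OGTBKO 3 against 1 read in WT 4. At 3 reads the WT libraries at 0 would stand above OGTBKO 3. The ratio of the pooled reads, set against the FPKM denominators, was 11.1 with a 95% counting interval from 1.67 to 473. That interval leaves out the spread between libraries. The difference was 0.21 ± 0.04 on the log2(FPKM + 0.5) scale (SE, n = 4 each). Of the 4 WT values behind that SE, 3 are 0, so it does not reflect the counting error.

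Whether reads shared by the genes were counted at all is not given in the sources used here. The number of reads in both genes together does not depend on how counted shared reads were split between them. It was 310, 440, 696 and 422 in OGTBKO 1 to 4, against 21, 20, 18 and 20 in WT 1 to 4. The summed FPKM depends on the split, since the genes are divided by different lengths (3880 bases for Bmp8b and 2405 for Bmp8a). It was 4.90, 7.08, 9.995 and 7.85 FPKM in OGTBKO 1 to 4, against 0.390, 0.360, 0.438 and 0.325 FPKM in WT 1 to 4. The means were 7.46 ± 2.10 FPKM in OGTBKO and 0.378 ± 0.0480 FPKM in WT tissue (SD, n = 4 each), a log2 difference of 3.14. Bmp8a made up 0.696% of the reads of the pair in OGTBKO tissue (13 of 1868 reads, exact Clopper-Pearson 95% interval 0.371% to 1.19%) and 1.27% in WT tissue (1 of 79 reads, 0.0320% to 6.85%). These intervals overlap, and the reads of Bmp8a cannot be told apart from reads of Bmp8b that fall in shared stretches, so their source was not tested.

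The length by which the authors divided Bmp8b, 3880 bases, is the union of the exons of 2 transcripts. The coding transcript Bmp8b-201 has 2940 bases, and 940 bases belong only to Bmp8b-202, which carries no coding sequence. If all reads came from Bmp8b-201, its level per length would be 1.32 times the deposited one in every library, with the ratio between groups unchanged. Bmp8b-202 shares 133 exon bases with Ppie, a gene on the opposite strand, while Bmp8b-201 ends 1023 bases short of it. Exons 2 and 3 of Bmp8b share 339 bases with Gm17244, an unconfirmed gene model on the opposite strand that held 2 reads in OGTBKO and 0 in WT libraries. Whether counting used strand is not given in the sources used here.

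Oxct2b, a ketone body enzyme gene within an intron of Bmp8b, shares no exon base with it. It held 1, 2, 8 and 7 reads in OGTBKO 1 to 4, against 0, 2, 0 and 0 reads in WT 1 to 4, a pooled ratio of 7.70 with a 95% counting interval from 1.84 to 68.4. That interval leaves out the spread between libraries, and OGTBKO 1 and OGTBKO 2 held no more reads than WT 2. Oxct2a, the counterpart of Oxct2b within Bmp8a, held 2 reads in OGTBKO and 0 in WT libraries. Both were chosen for their position after their values were seen, and neither reached the level needed for the test.

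Few of the genes around the pair passed the test. Of 37 other genes in the table within 500 kb of either member, 14 were tested, 1 rose and 1 fell. That is 14.3% of the tested neighbours, against 15.6% of all 13171 genes tested (8.11% higher and 7.46% lower in OGTBKO), a share near the background. Both lay within 250 kb, among 12 tested genes.

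Ppie (ENSMUSG00000028651, chr4:123127115-123139951, minus strand), a spliceosomal peptidyl-prolyl isomerase whose exons overlap those of Bmp8b-202, rose. It stood at 4.68, 3.72, 5.24 and 4.68 FPKM in OGTBKO 1 to 4, against 2.43, 3.41, 2.47 and 2.06 FPKM in WT 1 to 4. The means were 4.58 ± 0.631 FPKM in OGTBKO and 2.60 ± 0.575 FPKM in WT tissue, with a log2 difference of 0.72 ± 0.15 (limma adjusted p = 0.0165). The 4 OGTBKO values were all above the 4 WT values, and the groups were apart in this way in 22.5% of all genes tested. Its pooled reads numbered 509 in OGTBKO and 245 in WT libraries, against 1855 in OGTBKO and 78 in WT libraries for Bmp8b. The call was lost without OGTBKO 3 and when a trend with GC content and length was removed.

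Mycl (chr4:122995652-123002485, plus strand), a MYC family transcription factor gene, fell. It stood at 1.52, 0.523, 0.468 and 0.640 FPKM in OGTBKO 1 to 4, against 2.89, 1.45, 1.59 and 2.74 FPKM in WT 1 to 4. OGTBKO 1 was above the lowest WT library, so the groups overlapped. The log2 difference was -1.07 ± 0.28 (adjusted p = 0.0332), and the call was lost without any of OGTBKO 2, OGTBKO 3, OGTBKO 4, WT 1, WT 2 or WT 4, with library totals as denominators and when low genes were kept in the fit.

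The nearest expressed genes on the outer sides of the pair were Trit1, a tRNA-modifying enzyme gene upstream of Bmp8b, at a log2 difference of 0.23 ± 0.12 (adjusted p = 0.217), and Macf1, a cytoskeletal linker gene beyond Bmp8a. Macf1 had a log2 difference of -0.16 ± 0.12 (adjusted p = 0.395), which turned to 0.01 when the trend with GC content and length was removed. Between the members, Pabpc4, 13.7 kb from Bmp8a, averaged 23.8 ± 4.07 FPKM in OGTBKO and 18.0 ± 1.86 FPKM in WT tissue. Its groups did not overlap, as in 22.5% of all genes tested, with a log2 difference of 0.39 ± 0.13 (adjusted p = 0.0801). Hpcal4 (0.12), Nt5c1a (0.80) and Heyl (0.22), also there, had log2 differences above 0. Pabpc4, Hpcal4, Nt5c1a and Heyl were named after their values were seen. Gm25788, a small nucleolar RNA gene there, had 4 reads in OGTBKO and 7 in WT libraries (log2 difference -0.46, adjusted p = 0.699). None of these neighbours passed the test.

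**Figure D3:**
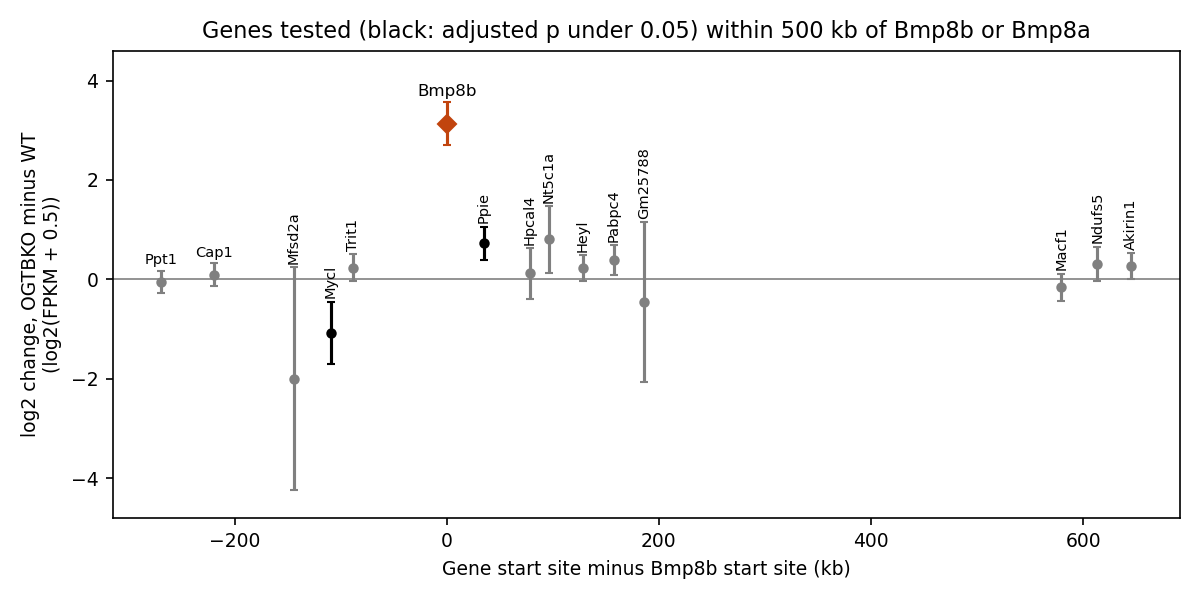
The vertical axis gives the log2 difference, OGTBKO minus WT on log2(FPKM + 0.5), of Bmp8b (diamond) and the 14 other tested genes within 500 kb of the pair, with 95% intervals, and the horizontal axis the distance between start sites in kb. Bmp8b stands at 3.14, while Ppie (0.72) and Mycl (-1.07) are the other genes past the threshold, drawn in black.

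Ogt, the targeted gene, stood at 10.7, 14.5, 12.8 and 11.8 FPKM in OGTBKO 1 to 4, against 33.1, 24.7, 23.9 and 22.5 FPKM in WT 1 to 4. It fell, with a log2 difference of -1.03 ± 0.14 (limma adjusted p = 0.00511), and no library went against its label. Reads in genes ranged from 14409348 to 15897920 in OGTBKO and from 13393962 to 15293657 in WT libraries. Mitochondrially encoded genes took 25.2% to 30.2% of reads in OGTBKO and 27.2% to 39.4% in WT libraries, with WT 3 the highest. Over the tested genes, 1068 rose and 982 fell.

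No list of cell type markers separated the groups. The summed levels of all 9 lists overlapped between OGTBKO and WT libraries, and no marker was at 0 in every library. Brown adipocyte markers summed to 2762 to 3155 FPKM in OGTBKO and 2855 to 4246 FPKM in WT libraries, with 2 of 9 lower. Adipocyte markers summed to 1927 to 2417 FPKM in OGTBKO and 1386 to 2152 FPKM in WT libraries, with 1 of 6 higher. Macrophage markers summed to 246 to 565 FPKM in OGTBKO and 180 to 360 FPKM in WT libraries, with 1 of 8 lower. Endothelial markers summed to 127 to 137 FPKM in OGTBKO and 102 to 135 FPKM in WT libraries, with 1 of 7 higher. Skeletal muscle markers spread most, from 0.952 to 1213 FPKM in OGTBKO and from 0.383 to 407 FPKM in WT libraries, with none of 7 passing the test. None of the tested fibroblast, pericyte or Schwann cell markers passed it, and the T and B cell markers were below the filter. All 4 tested Schwann cell markers had a log2 difference below 0 (median -0.48), with 1 lower at an unadjusted p under 0.05 in limma. Of the fibroblast markers 4 of 6 and of the pericyte markers 2 of 5 were below 0. Beside these marker counts, 8.11% of all genes tested were higher and 7.46% lower in OGTBKO. The sums rest mostly on the markers of highest level, such as Ucp1, Cidea and Cox8b among brown adipocyte markers. The part of any cell type in the Bmp8b difference was not tested.

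Bmp8b and Ucp1 differed in opposite directions. Ucp1 (chr8:83290352-83298452, plus strand) stood at 1026, 904, 1096 and 998 FPKM in OGTBKO 1 to 4, against 1775, 2524, 1512 and 2392 FPKM in WT 1 to 4. Every OGTBKO library was below every WT library, beside 22.5% of all genes tested whose groups were apart. The means were 1006 ± 79.3 FPKM in OGTBKO and 2051 ± 485 FPKM in WT tissue (SD, n = 4 each), with a log2 difference of -0.999 ± 0.18 (limma adjusted p = 0.0113). With library totals as denominators the call was lost (adjusted p = 0.0516), and it was lost when low genes were kept in the fit (adjusted p = 0.0763).

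The ratio of the Ucp1 level to the Bmp8b level, both per length, lay between 110 and 214 in OGTBKO and between 3452 and 7988 in WT libraries. The libraries form 2 separate groups in Bmp8b, so a pooled correlation would only restate the difference between genotypes, and none is given. Each genotype has only 4 libraries, so the relation within a genotype was not tested. Within WT, the libraries with the higher Ucp1 (WT 2 and WT 4) had the lower Bmp8b. Within OGTBKO, OGTBKO 3 had the highest level of both genes, and the lowest Ucp1 was in OGTBKO 2 and the lowest Bmp8b in OGTBKO 1. In WT libraries Bmp8b rested on 18 to 21 reads, and its differences there were within counting error.

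**Figure D4:**
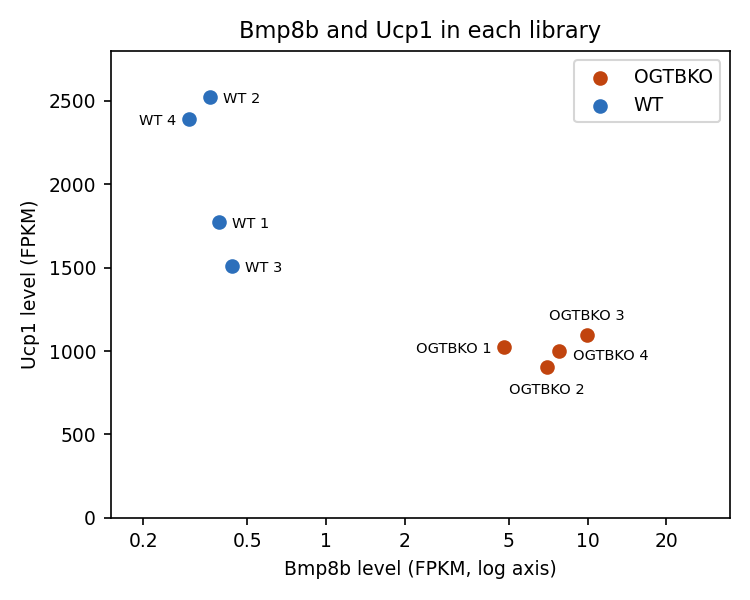
Each point is a library, with the Bmp8b level in FPKM on a log horizontal axis and the Ucp1 level in FPKM on the vertical axis. The 4 OGTBKO libraries sit at high Bmp8b (4.80 to 9.95 FPKM) and low Ucp1 (904 to 1096 FPKM), and the 4 WT libraries at low Bmp8b (0.300 to 0.438 FPKM) and high Ucp1 (1512 to 2524 FPKM), with no overlap on either axis.

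The other genes known to be induced by cold in brown fat fell where they passed the test. Of 25 cold-induced brown fat genes, 23 were tested, none rose and 5 fell, with a median log2 difference of -0.15, against -0.0021 over all genes tested. That is 21.7% of the 23, beside 15.6% of all genes tested, and 8 of the 23 had a difference above 0. At an unadjusted p under 0.05 in limma 3 were higher and 9 lower, and limma voom called none higher. When low genes were kept in the fit 1 of 25 rose, and without WT 4 1 of 23 rose. Ppargc1a, the coactivator of mitochondrial and thermogenic genes, averaged 7.17 ± 0.878 FPKM in OGTBKO and 13.6 ± 2.19 FPKM in WT tissue (log2 difference -0.87 ± 0.13, adjusted p = 0.00628). Kcnk3, a potassium channel gene, averaged 68.3 ± 8.86 FPKM in OGTBKO and 122 ± 20.2 FPKM in WT tissue (log2 difference -0.83 ± 0.15, adjusted p = 0.0110). Pdk4, a kinase gene that restrains pyruvate oxidation, averaged 388 ± 76.0 FPKM in OGTBKO and 675 ± 37.8 FPKM in WT tissue (log2 difference -0.82 ± 0.15, adjusted p = 0.0119).

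Ucp1 and Nr4a3 were the other members that fell. Nr4a3, an orphan nuclear receptor gene named after its values were seen, averaged 0.570 ± 0.525 FPKM in OGTBKO and 2.15 ± 0.492 FPKM in WT tissue (log2 difference -1.40 ± 0.29, adjusted p = 0.0168). Dio2, whose enzyme activates thyroid hormone, stood at 13.9, 28.2, 24.0 and 34.9 FPKM in OGTBKO 1 to 4, against 37.9, 59.0, 18.5 and 119 FPKM in WT 1 to 4. The WT libraries spread widely and overlapped those of OGTBKO (log2 difference -0.96 ± 0.51, adjusted p = 0.222). Nrg4, which like Bmp8b encodes a factor secreted by brown fat, averaged 15.8 ± 2.35 FPKM in OGTBKO and 20.9 ± 3.84 FPKM in WT tissue and did not pass the test (adjusted p = 0.116). Elovl3, Fabp3 and Fgf21, named after their values were seen, had higher means in OGTBKO tissue, the direction of Bmp8b. Elovl3 and Fabp3 did not pass the test, and Fgf21 was too low to be tested. Elovl3, a fatty acid elongase gene, averaged 138 ± 57.2 FPKM in OGTBKO and 55.9 ± 48.1 FPKM in WT tissue (log2 difference 1.75 ± 0.68, adjusted p = 0.111). Fabp3, a fatty acid binding protein gene, averaged 229 ± 67.3 FPKM in OGTBKO and 132 ± 51.3 FPKM in WT tissue (log2 difference 0.83 ± 0.29, adjusted p = 0.0820). Fgf21, a hormone gene below the filter, stood at 0.320, 1.11, 0.760 and 0.755 FPKM in OGTBKO 1 to 4, against 0, 0, 0 and 0.193 FPKM in WT 1 to 4. Its groups did not overlap, beside 22.5% of all genes tested whose groups were apart.

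Of the 13 adrenergic and lipolytic genes, all tested, 1 rose and 2 fell, which is 23.1%, beside 15.6% of all genes tested. Adrb3, the main noradrenaline receptor gene of mouse adipocytes, averaged 72.7 ± 11.5 FPKM in OGTBKO and 73.5 ± 27.9 FPKM in WT tissue, with a log2 difference of 0.04 ± 0.24 (adjusted p = 0.925) that turned to -0.10 when the trend with GC content and length was removed. Lipe, the hormone-sensitive lipase gene, averaged 157 ± 20.8 FPKM in OGTBKO and 103 ± 8.54 FPKM in WT tissue (log2 difference 0.60 ± 0.12, adjusted p = 0.0165). The transcription factor genes Atf2 and Creb1, which act downstream of adrenergic signals, fell. Atf2 averaged 11.3 ± 1.40 FPKM in OGTBKO and 16.6 ± 1.27 FPKM in WT tissue (adjusted p = 0.0166), and Creb1 averaged 2.35 ± 0.123 FPKM in OGTBKO and 3.31 ± 0.457 FPKM in WT tissue (adjusted p = 0.0363). The calls of Lipe and Atf2 were lost without OGTBKO 3 or WT 2. The call of Creb1 was lost without any OGTBKO library, WT 2 or WT 3, and those of Atf2 and Creb1 with library totals and with the trend removed.

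By mean level per length, Bmp8b at 7.37 ± 2.12 FPKM stood next to Bmp6 at the top of the BMP ligand genes in OGTBKO tissue, within the spread of the libraries. In WT tissue it was below Bmp6, Gdf5, Gdf10 and Bmp2, at 0.372 ± 0.0581 FPKM. Gdf10 averaged 1.22 ± 0.458 FPKM in OGTBKO and 0.841 ± 0.274 FPKM in WT tissue and did not pass the test. Of 14 other BMP ligand genes, 4 were tested, and 1 rose, which is 25% of the 4, beside 8.11% of all genes tested that rose. Gdf5, a ligand known from joint development, stood at 3.20, 2.57, 2.13 and 3.003 FPKM in OGTBKO 1 to 4, against 0.529, 1.08, 1.67 and 0.396 FPKM in WT 1 to 4. Every OGTBKO library was above every WT library, beside 22.5% of all genes tested whose groups were apart. The log2 difference was 1.26 ± 0.27 (limma adjusted p = 0.0181), and the call was lost without OGTBKO 4. Bmp6, named like Gdf10 after the values were seen, averaged 6.57 ± 1.20 FPKM in OGTBKO and 7.68 ± 1.72 FPKM in WT tissue (adjusted p = 0.461). Bmp2, a ligand known from bone and fat cell commitment, averaged 0.792 ± 0.139 FPKM in OGTBKO and 0.826 ± 0.461 FPKM in WT tissue (adjusted p = 0.969). Bmp4 averaged 0.418 FPKM in OGTBKO and 0.263 FPKM in WT tissue, and Bmp7, an inducer of brown fat in mice, 0.145 FPKM in OGTBKO and 0.109 FPKM in WT tissue, both below the filter.

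The 6 roles of the BMP pathway include a receptor list that also holds activin and TGF-beta receptors. Over these roles, 71 genes were in the table and 48 were tested, of which 2 rose and 7 fell. That is 18.8%, beside 15.6% of all genes tested, and the median log2 difference of the 48 was -0.02, beside -0.0021. The balance turned in some alternatives: 3 rose and 2 fell with library totals as denominators, 3 rose and 2 fell with the trend removed, and 2 rose and 1 fell without OGTBKO 3 and likewise without WT 2.

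Of the receptors and coreceptors of BMPs, activins and TGF-beta, 15 of 16 were tested, none rose and 5 fell. The median log2 difference of the 15 was -0.26. The 5 are 33.3% of those tested, beside 7.46% of all genes tested that fell. At an unadjusted p under 0.05 in limma none was higher and 7 were lower, and limma voom called none higher. Bmpr2, a type II BMP receptor gene, stood at 7.68, 7.72, 5.91 and 8.11 FPKM in OGTBKO 1 to 4, against 9.44, 13.2, 13.8 and 11.3 FPKM in WT 1 to 4 (log2 difference -0.66 ± 0.14, adjusted p = 0.0202). Bmpr1a, a type I BMP receptor gene, stood at 10.8, 9.33, 7.88 and 9.66 FPKM in OGTBKO 1 to 4, against 13.1, 14.5, 13.5 and 11.8 FPKM in WT 1 to 4 (log2 difference -0.47 ± 0.11, adjusted p = 0.0273). In both receptor genes every OGTBKO library was below every WT library, beside 22.5% of all genes tested whose groups were apart. Acvr2a, a type II receptor gene shared by activins and BMPs, averaged 4.37 ± 0.260 FPKM in OGTBKO and 6.82 ± 1.13 FPKM in WT tissue (adjusted p = 0.0198). Acvr1c, the ALK7 receptor gene of fat, averaged 15.9 ± 2.91 FPKM in OGTBKO and 23.6 ± 2.91 FPKM in WT tissue (adjusted p = 0.0309). Tgfbr1, the type I TGF-beta receptor gene, averaged 4.24 ± 0.461 FPKM in OGTBKO and 6.17 ± 0.699 FPKM in WT tissue (adjusted p = 0.0228). The median stayed below 0 in all 17 alternatives. The count of receptors that fell was 0 without OGTBKO 3, 0 without WT 2 and 0 after removal of the GC and length trend. It was also 0 with a block for replicate number, though the labels do not pair the samples, and 1 with library totals. Bmpr1a and Acvr1c also lost their calls without OGTBKO 2 or OGTBKO 4, and Acvr1c without WT 4.

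Of 10 genes for SMADs and their ubiquitin ligases, 9 were tested and 1 fell. That is 11.1% of the 9, beside 7.46% of all genes tested that fell. Smad4, the partner that receptor-activated SMADs share, averaged 12.3 ± 1.13 FPKM in OGTBKO and 16.8 ± 1.12 FPKM in WT tissue (log2 difference -0.44 ± 0.10, adjusted p = 0.0223), a call lost without OGTBKO 3, without WT 2 and with library totals. Among the SMADs that BMP receptors phosphorylate, Smad1 averaged 1.99 ± 0.353 FPKM in OGTBKO and 1.84 ± 0.325 FPKM in WT tissue (adjusted p = 0.691). Smad5 averaged 8.69 ± 0.464 FPKM in OGTBKO and 10.5 ± 1.02 FPKM in WT tissue (adjusted p = 0.105). Neither passed the test.

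Of 9 BMP target genes, 7 were tested and 1 rose, which is 14.3% of the 7, beside 8.11% of all genes tested that rose. Id2, an inhibitor of basic helix-loop-helix factors, stood at 17.7, 19.8, 21.9 and 24.4 FPKM in OGTBKO 1 to 4, against 11.1, 9.48, 12.6 and 6.27 FPKM in WT 1 to 4. The groups did not overlap, as in 22.5% of all genes tested. The log2 difference was 1.08 ± 0.20 (adjusted p = 0.0111), a call kept in each of the 17 alternatives. The related Id3 averaged 32.3 ± 5.88 FPKM in OGTBKO and 21.3 ± 4.19 FPKM in WT tissue (adjusted p = 0.0553), and Id1 averaged 23.9 ± 1.46 FPKM in OGTBKO and 19.7 ± 3.90 FPKM in WT tissue (adjusted p = 0.206). The log2 differences of all 7 tested targets were above 0, beside 6554 of all 13171 genes tested. With the GC and length trend removed 5 of the 7 targets were above 0. The number above 0 was 6 without OGTBKO 2 and 5 without WT 1.

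Of 18 genes for secreted BMP antagonists and modulators, 9 were tested and 1 fell. That is 11.1% of the 9, beside 7.46% of all genes tested that fell. Bmper, which encodes a secreted BMP-binding modulator expressed by endothelial cells, stood at 1.78, 1.53, 1.48 and 1.46 FPKM in OGTBKO 1 to 4, against 3.34, 3.89, 2.77 and 2.89 FPKM in WT 1 to 4. The groups did not overlap, as in 22.5% of all genes tested. The log2 difference was -0.85 ± 0.12 (adjusted p = 0.00552), a call kept in each of the 17 alternatives. The 4 convertase genes were all tested and none passed the test in limma or limma voom, with 1 lower at an unadjusted p under 0.05. Furin averaged 12.4 ± 1.91 FPKM in OGTBKO and 10.1 ± 2.06 FPKM in WT tissue (adjusted p = 0.232), and Pcsk5 averaged 0.916 ± 0.211 FPKM in OGTBKO and 1.47 ± 0.420 FPKM in WT tissue (adjusted p = 0.137).

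**Figure D5:**
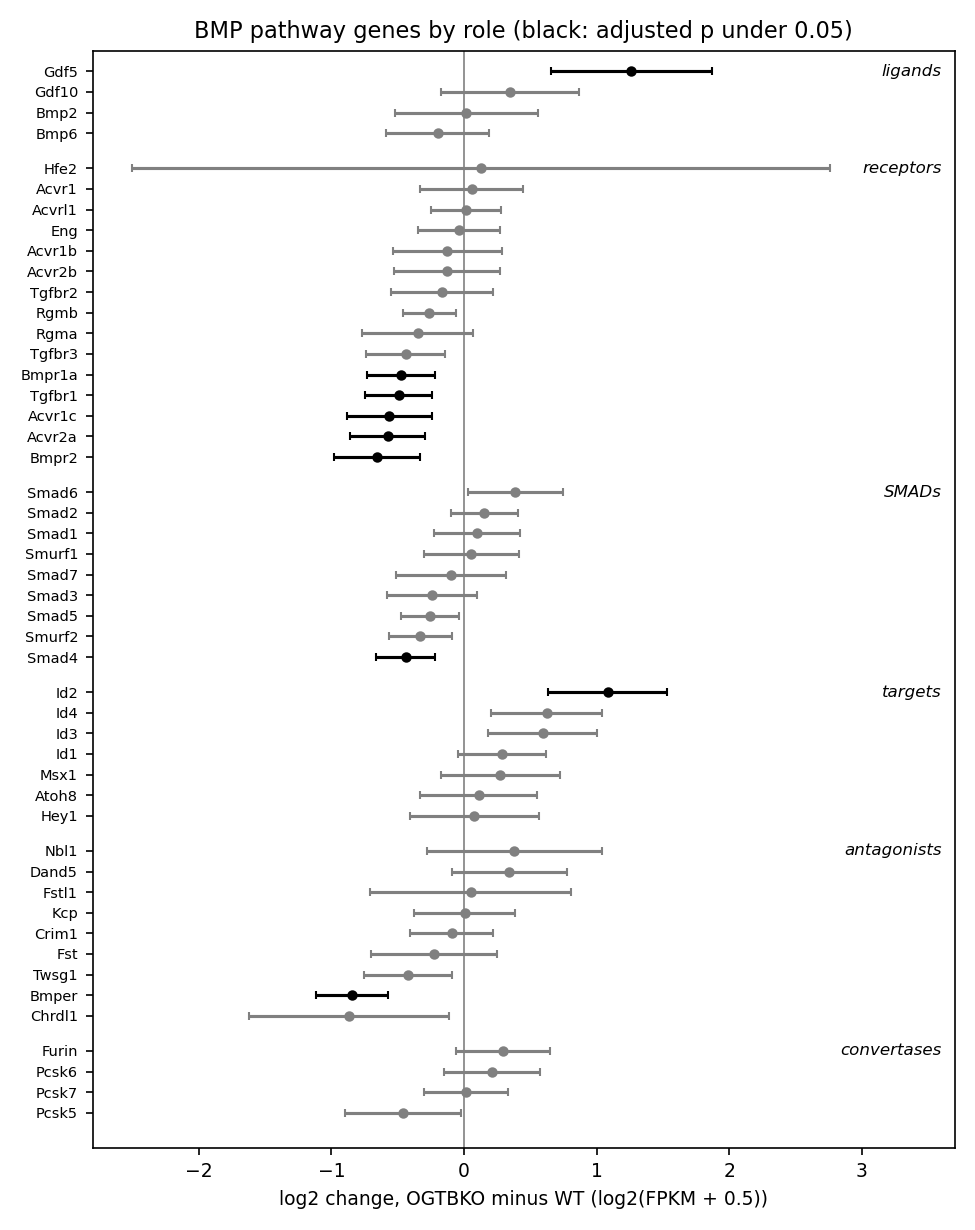
The horizontal axis gives the log2 difference, OGTBKO minus WT on log2(FPKM + 0.5), with 95% intervals, for the 48 tested genes of the BMP pathway, grouped by role down the page. Gdf5 (1.26) and Id2 (1.08) rose, and 5 receptor genes, Smad4 (-0.44) and Bmper (-0.85) fell, all drawn in black.

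Among 10082 protein-coding genes with a mean of at least 1 FPKM, 5 were most like Bmp8b over the 8 libraries by Pearson's r of log2(FPKM + 0.5). They were Wwc1 (r = 0.995), a scaffold gene of the Hippo pathway, Tgfb1 (0.990), a cytokine of the same superfamily as Bmp8b, Atp6v0e2 (0.990), a subunit gene of the vacuolar proton pump, Csnk1e (0.989), a casein kinase gene, and Gm1673 (0.989), a gene model. Over all 10082 genes, 100 had r above 0.95 and 108 below -0.95. The libraries share their genotype groups, so any gene with well separated groups ranks high. On deviations from the group means, r was 0.764 for Wwc1, 0.824 for Tgfb1, 0.758 for Atp6v0e2, 0.711 for Csnk1e and 0.548 for Gm1673, over the same 8 libraries and as a description only. Picking the 5 by r over these libraries also favours genes whose deviations follow Bmp8b. These values and any shared order of libraries therefore follow in part from the choice. Wwc1, Atp6v0e2 and Gm1673 had WT means under 1 FPKM, so they passed the filter only through their OGTBKO level.

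The closest match, Wwc1, stood at 2.19, 2.05, 3.35 and 2.95 FPKM in OGTBKO 1 to 4, against 0, 0.0282, 0 and 0 FPKM in WT 1 to 4. Like Bmp8b, it was highest in OGTBKO 3, but its lowest OGTBKO level was in OGTBKO 2, where that of Bmp8b was in OGTBKO 1. Tgfb1 stood at 5.07, 5.67, 7.13 and 5.34 FPKM in OGTBKO 1 to 4, against 2.50, 2.63, 2.66 and 2.58 FPKM in WT 1 to 4, with OGTBKO 3 the highest and OGTBKO 1 the lowest of its group, as in Bmp8b. Atp6v0e2 averaged 4.83 ± 1.15 FPKM in OGTBKO and 0.638 ± 0.150 FPKM in WT tissue, Csnk1e averaged 3.99 ± 0.237 FPKM in OGTBKO and 2.73 ± 0.0653 FPKM in WT tissue, and Gm1673 averaged 2.58 ± 0.428 FPKM in OGTBKO and 0.325 ± 0.0726 FPKM in WT tissue. OGTBKO 3, which set the top of the Bmp8b range, also had the largest FPKM denominator relative to its reads, at 1.13 times its total, against 0.966 to 1.06 times in the other OGTBKO libraries. The part of this scaling in the Bmp8b level of OGTBKO 3 was not tested.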

How the data were processed

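Per the submitters' processing notes, the tools included HISAT2 2.0.5, featureCounts 1.5.0-p3 of Subread and the mm10 build. The authors deposited FPKM values and gene lengths for 54532 genes in 8 libraries. Per the file headers, each library has its own column and no value column was left out. Multiplied by the deposited gene length, 100% of values were whole multiples of 1 read (tolerance 0.001). The denominator of a library, relative to its own total of reads, lay between 0.966 and 1.13 in OGTBKO and between 0.790 and 1.07 in WT libraries, so the values were already scaled between libraries. GENCODE M21 held 99.93% of the gene IDs, with equal coordinates for 98.26%. Libraries of a group differed by a chi-square of 16.0 to 99.6 per degree of freedom, so none was a repeat deposit.

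Genes with a mean of at least 0.5 FPKM (13171) were analysed as log2(FPKM + 0.5) with limma 3.58.1 in R 4.3.3 (all 8 samples, no covariates, two-sided moderated test, eBayes with trend), with Benjamini-Hochberg adjustment over all tested genes and a threshold of 0.05. Adjusted p-values come from this fit. Errors beside FPKM means are SDs of 4 libraries, and errors beside log2 differences are SEs. Intervals were computed with scipy 1.17.1, and alignments with Biopython 1.88. Scripts were tested on simulated data. Transcript sequences are from GENCODE M21 and promoters from RefSeq (GRCm38.p6), in which both members matched by symbol. Motifs were searched on both strands.

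The members, gene lists and tests were chosen with earlier results of these data known. Named genes were the members, Ucp1 and Ogt, the called members of each list up to the 4 with the smallest p (otherwise the first 2), 14 pathway and brown fat genes in any case, called and nearest neighbours, and the 5 most alike. The alternatives were pseudocounts of 0.1 and 1, no filter or a mean of 1 FPKM, library totals, limma voom on back-calculated reads, removal of a GC and length trend, a replicate block, and leaving out each library. No genome or protein sequence was used here.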

Additional observations from a re-analysis of the deposited data

Results flagged for a closer look

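Of 84 groups of 4 libraries checked, 5 held a library far from the other 3, with a gap that took most of the range of the 4. Chance gives this in about 1 of 20 groups of values that follow a normal distribution. That rate does not hold for groups with 3 values at 0, as in Bmp8a and Wwc1 below. In Bmp8a, WT 4 stood at 0.0254 FPKM, which is 1 read, while the other WT libraries were at 0. In Wwc1, WT 2 stood at 0.0282 FPKM and the other WT libraries at 0. Mycl stood at 1.52 FPKM in OGTBKO 1, against 0.468 to 0.640 FPKM in the other OGTBKO libraries. Macf1 had its highest OGTBKO level in OGTBKO 1 (13.1 FPKM, the rest 10.4 to 10.8 FPKM). Its lowest WT level was in WT 1 (10.2 FPKM, the rest 13.3 to 13.6 FPKM).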

How the results depend on the processing

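The log2 difference of Bmp8b was 3.95 with a pseudocount of 0.1, 2.57 with 1 and 4.26 with limma voom on reads. That of Bmp8a was 0.79 with 0.1 and 0.11 with 1, and that of the sum 3.94 with 0.1 and 2.58 with 1. Each stayed above 0 in every alternative run. Leaving out each library gave 2.98 to 3.31 for Bmp8b, 0.19 to 0.24 for Bmp8a and 2.99 to 3.31 for the sum. Genes called numbered 2050, against 1229 with no filter and 1229 with library totals, where 79.7% of calls were higher (980 higher, 249 lower), against 52.1%. Without a library they numbered 694 (OGTBKO 3) to 2115 (WT 3). WT 2 left out gave 771, OGTBKO 4 957, OGTBKO 2 1173 and WT 4 1188. BMP pathway calls numbered 5 with library totals, 5 with the GC and length trend removed, and 3 to 12 without a library (3 without OGTBKO 3 or WT 2). Cold-induced and adrenergic calls numbered 5 with library totals and 4 to 9 without a library (4 without OGTBKO 3 or WT 2). Neighbour calls numbered 1 with no filter, with library totals and with the trend removed, and 0 to 2 without a library (0 without OGTBKO 3). Ucp1 lost its call with no filter (log2 difference -0.999) and with library totals (-0.88). The cause of these changes was not tested.

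Replicate numbers do not pair the samples by the labels, and the correlations of deviations of same-numbered libraries were 0.220, 0.169, 0.0143 and -0.0070. With the replicate block 888 genes were called (2 in the BMP pathway, none of them a receptor, and 1 neighbour), and with the block and the trend removed 523 (2 in the BMP pathway, 2 cold-induced and adrenergic, 1 neighbour, Ucp1 at -1.07 with adjusted p = 0.0531).

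Signs turned in 4 genes that did not pass the test: Adrb3 (-0.10 with the trend removed, with or without the block, and -0.14 to 0.27 without a library, below 0 when OGTBKO 3, WT 3 or WT 4 was left out), Bmp2 (-0.079 with the trend removed, with or without the block, and -0.17 to 0.23 without a library, below 0 when OGTBKO 2, WT 1 or WT 2 was left out), Macf1 (0.013 with the trend removed, with or without the block) and Gm25788 (-0.91 to 0.057 without a library, above 0 without WT 3). Of 23 named genes called, 8 were called in each of 17 alternatives. For Bmp8a and for Bmp8b in WT libraries, depth limits the values.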
